A study of Mus musculus with 22 samples.

Results

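The 50 genes described here encode proteins that a dividing cell uses to copy its DNA or to pass through mitosis. They were taken by symbol, 25 from the S phase and 25 from G2 and mitosis, and all 50 were found among the 24296 genes listed in both count tables (27124 genes were listed at E14.5 and 27504 at P9). The S phase genes comprised the helicase subunits Mcm2, Mcm3, Mcm4, Mcm5, Mcm6 and Mcm7, the loading and initiation factors Cdc6, Cdt1 and Mcm10 with the inhibitor Gmnn, the replication fork genes Pcna, Rfc3, Pola1, Pole and Prim1, the nucleotide synthesis genes Rrm1, Rrm2, Tyms and Tk1, the chromatin assembly and repair genes Chaf1b and Ung, and the regulators Ccne1, Ccne2, Cdk2 and E2f1. The mitosis genes comprised the cyclins and kinases Ccna2, Ccnb1, Ccnb2, Cdk1, Plk1, Aurka and Aurkb, the phosphatase Cdc25c, the checkpoint and kinetochore genes Bub1, Bub1b, Cenpa, Cenpe, Cenpf and Birc5, the motor and spindle genes Kif11, Kif20a, Kif23, Nusap1 and Tpx2, the exit genes Cdc20 and Ube2c, the chromosome genes Top2a and Mki67, and the transcription factors Foxm1 and Mybl2.

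RNA was sequenced from 22 libraries, each made from 100 tdTomato+ pancreatic endocrine cells sorted by flow cytometry from mice whose Cre recombinase was driven by Neurod1, which also switched on the Ai14 tdTomato reporter. Isl1CKO mice carried 2 floxed copies of Isl1, the gene of a LIM-homeodomain transcription factor. The control libraries are labelled WT, and the study's methods give these littermates as Isl1 f/+ with the same Cre and reporter, so that controls also lost 1 copy of Isl1 in recombined cells. There were 6 control and 5 Isl1CKO libraries at E14.5 and 5 control and 6 Isl1CKO libraries at P9, with both sexes used, and the sorted cells were not divided into hormone types. The E14.5 tissue was dissociated with trypsin alone and the P9 tissue with collagenase followed by trypsin, so age, dissociation and library set cannot be told apart.

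Before S phase a cell loads the MCM helicase onto replication origins with the help of Cdc6 and Cdt1. Geminin (Gmnn) blocks this loading once replication has begun. In S phase the cell copies its DNA with polymerases held on the template by the PCNA clamp. In G2 and mitosis, Cdk1 bound to cyclins A and B drives entry, the aurora and polo kinases build the spindle, and the anaphase-promoting complex with Cdc20 ends the division. Endocrine cells of the embryonic pancreas arise largely from progenitors that have left the cell cycle, while islet cells of newborn mice divide for a few weeks after birth. In bulk libraries, a larger share of dividing cells and more transcript in each dividing cell cannot be told apart.

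The promoters of 5 members are shown because members of each list share short motifs there. S phase genes are known targets of E2F factors, and many mitosis genes carry a cell cycle genes homology region (CHR) beside CCAAT boxes. Of the 50 members, 40 matched a RefSeq promoter window of 300 bases (250 before the gene start and 50 after it, GRCm38.p6). Each run below holds the 100 bases before the start, 5′ to 3′ on the strand of the gene, and capitals mark the motif letters. Mcm6 lies on the minus strand at chr1:128359706-128359805, Cdk1 on the minus strand at chr10:69352913-69353012, Top2a on the minus strand at chr11:99024190-99024289, Ube2c on the plus strand at chr2:164769829-164769928 and Cdc20 on the minus strand at chr4:118437344-118437443.
Mcm6: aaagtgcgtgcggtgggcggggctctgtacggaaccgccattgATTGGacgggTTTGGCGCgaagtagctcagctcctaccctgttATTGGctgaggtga
Cdk1: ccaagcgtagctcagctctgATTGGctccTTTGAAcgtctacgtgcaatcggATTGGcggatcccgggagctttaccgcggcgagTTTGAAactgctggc
Top2a: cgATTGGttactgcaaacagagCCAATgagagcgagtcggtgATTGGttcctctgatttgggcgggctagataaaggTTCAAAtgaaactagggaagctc
Ube2c: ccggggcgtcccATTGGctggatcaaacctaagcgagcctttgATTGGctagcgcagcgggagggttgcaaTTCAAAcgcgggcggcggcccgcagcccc
Cdc20: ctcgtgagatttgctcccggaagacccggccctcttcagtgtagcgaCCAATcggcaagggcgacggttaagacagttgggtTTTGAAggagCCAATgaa

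In the Mcm6 run the capitals are an E2F type site, TTTGGCGC, between CCAAT boxes read on the other strand as ATTGG. In the 4 mitosis genes they are CHR elements, TTTGAA or its complement TTCAAA, and CCAAT boxes. In Top2a and Ube2c the CCAAT boxes lie upstream of the CHR, and in Cdk1 and Cdc20 a CCAAT box also lies downstream of a CHR. Over the whole window and both strands, an E2F type site (TTTCCCGC, TTTGGCGC, TTTCGCGC or TTTGCCGC) was present in 9 of 21 matched S phase genes (42.9%) and in 1 of 19 matched mitosis genes, Cdk1 (5.26%), against 2.60% of all 27025 promoters. A CHR (TTTGAA or TTCGAA) was present in 14 of 19 mitosis genes (73.7%) and 3 of 21 S phase genes (14.3%), against 21.7% of all promoters. CCAAT was present in 84.2% of the mitosis genes, 61.9% of the S phase genes and 41.1% of all promoters, and the same 14 mitosis genes held both a CHR and a CCAAT box, a pair found in 9.65% of all promoters. These are matches of letters in fixed windows, and no binding was measured.

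The libraries held 8477482 to 13580985 counts in genes. Islet hormone genes took 0.710% to 6.18% of them at E14.5, 51.2% to 56.5% in the P9 controls and 14.0% to 30.2% in P9 Isl1CKO, so levels are given as CPM, counts scaled to a common library size after a trimmed mean of M-values (TMM) correction. All libraries expressed the endocrine markers Neurod1 (331 to 1070 CPM) and Chga (1050 to 24287 CPM). Counts over the whole Isl1 gene gave an Isl1CKO against control log2 fold change of -0.48 at E14.5 and 1.08 at P9 (edgeR, Benjamini-Hochberg adjusted p = 0.00633 and 0.00813). Which exons are deleted is not given in the sources used here, so whole gene counts were not used to check the labels. Of 9 macrophage markers, 5 to 7 had counts in each E14.5 control library and 5 to 9 in each E14.5 Isl1CKO library. Their sums were 29.4 to 47.1 and 30.4 to 104 CPM, and Tyrobp was at 0 in all 6 controls. All 5 tested at E14.5 had a log2 difference above 0 (median 1.84, edgeR unadjusted p under 0.05 for 3, none called). Acinar markers summed to 74.5 to 987 CPM in P9 controls (highest in control 3) and 26.5 to 172 CPM in P9 Isl1CKO, and all 7 tested had a log2 difference below 0 (median -1.82, unadjusted p under 0.05 for 6, none called). Mesenchyme markers summed to 14.2 to 48.9 CPM in E14.5 controls and 10.0 to 19.4 CPM in E14.5 Isl1CKO, and all 3 tested were lower in Isl1CKO at an unadjusted p under 0.05 (median -1.45, none called). Duct markers summed to 512 CPM in P9 Isl1CKO 3 against 69.8 CPM in the lowest library of its group. The marker list of endocrine progenitors fell in summed level between the ages, from 306 to 435 CPM in E14.5 controls to 101 to 155 CPM in P9 controls. In Isl1CKO this sum was above the controls at each age, at 461 to 585 CPM at E14.5 and 198 to 313 CPM at P9. Of the markers tested, 5 of 8 at E14.5 and 5 of 7 at P9 had a log2 difference above 0. At E14.5 1 was called higher, and at P9 1 was called higher and 1 lower. The part of these other transcripts in the results below was not tested.

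The summed level of the 25 S phase genes was alike in the E14.5 libraries and higher and more variable at P9. In E14.5 controls it was 267 ± 15.1 CPM (SD, n = 6), and the 5 E14.5 Isl1CKO libraries held 371, 289, 260, 314 and 305 CPM. The 5 P9 controls held 923, 467, 618, 943 and 798 CPM, and the P9 Isl1CKO libraries ranged from 448 to 1027 CPM (median 939). With TMM scaling every P9 library lay above every E14.5 library. The mean was 2.80-fold higher at P9 in controls and 2.76-fold higher in Isl1CKO, against 1.24-fold and 1.86-fold when scaled to total counts. On total counts the ages overlapped in both genotypes. Controls then held 336 to 370 CPM at E14.5 and 257 to 567 CPM at P9, and Isl1CKO libraries 348 to 499 CPM and 465 to 944 CPM.

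The 25 mitosis genes differed more between the ages and between libraries. Among E14.5 controls, library 2 held 234 CPM and library 6 held 120 CPM, and the other 4 held 35.5 to 38.5 CPM. The E14.5 Isl1CKO libraries held 116, 79.0, 41.5, 34.6 and 48.9 CPM. At P9 the controls held 833, 1014, 786, 1741 and 370 CPM, and the Isl1CKO libraries ranged from 268 to 1653 CPM (median 698). With TMM scaling the ages did not overlap in either genotype, and the genotypes overlapped widely at both ages. On total counts the ages overlapped in controls, with up to 314 CPM at E14.5 and from 209 CPM at P9. In Isl1CKO they did not, with up to 156 CPM at E14.5 and from 272 CPM at P9. The mean rise was 11.3-fold in controls and 13.3-fold in Isl1CKO (4.95-fold and 8.73-fold on total counts), and without E14.5 control 2 the fold in controls was 17.6. The mean in Isl1CKO was 0.763 times that of controls at E14.5, which became 1.19 times without control 2 and 1.72 times without controls 2 and 6. At P9 it was 0.898 times, against 1.36 times on total counts, 1.14 times without control 4 and 1.02 times without Isl1CKO 6. At both ages, whether the ratio lay above or below 1 thus changed with the libraries left out, and at P9 also with the scaling.

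**Figure D1:**
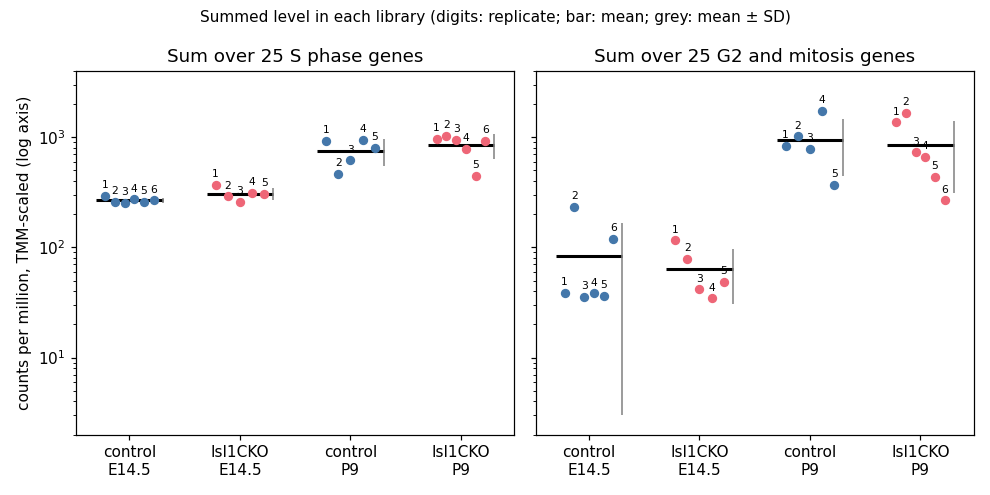
Summed level of the S phase genes and of the mitosis genes in each library (CPM of TMM-scaled library size, log axis), by group, with points for libraries, black lines for group means and grey lines for the SD around them. Every P9 library lies above every E14.5 library for the S phase sum, and E14.5 control 2 (234 CPM) stands above the other E14.5 libraries for the mitosis sum.

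E14.5 control 2 was high across most of the mitosis list. This library was among the 3 highest of the 11 E14.5 libraries for 24 of the 25 mitosis genes and the highest for 13, and among the 3 highest for 9 of the 25 S phase genes. Control 6 was among the 3 highest for 16 mitosis genes and Isl1CKO 1 for 14. Controls 2 and 6 also had the most mesenchyme transcripts at E14.5 (48.0 and 48.9 CPM), and control 6 the most duct transcripts (300.2 CPM). At P9, control 4 was among the 3 highest of 11 libraries for 20 mitosis genes, and Isl1CKO 1 and Isl1CKO 2 were for 17 each. Control 4 (86.4 CPM) and Isl1CKO 2 (31.8 CPM) had the highest mesenchyme sums of their P9 groups. Control 3 (76.9 CPM) and Isl1CKO 4 (31.3 CPM) came next, and were among the 3 highest P9 libraries for 4 and 0 mitosis genes. E14.5 control 4 held 39.1 CPM of mesenchyme transcripts with a mitosis sum of 38.1 CPM. The part of these transcripts in the mitosis sums was not tested. The ratio of the mitosis sum to the S phase sum was 0.131 to 0.905 in E14.5 controls (median 0.141), 0.110 to 0.312 in E14.5 Isl1CKO (median 0.160), 0.464 to 2.17 in P9 controls (median 1.27) and 0.288 to 1.61 in P9 Isl1CKO (median 0.915). In both genotypes the ages overlapped in this ratio, in contrast to the TMM-scaled sums themselves.

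**Figure D2:**
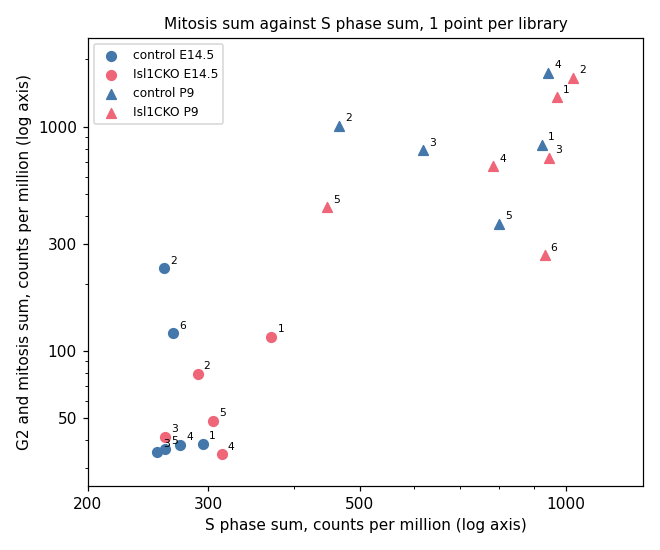
Summed mitosis genes against summed S phase genes (both CPM of TMM-scaled library size, log axes), 1 point per library, coloured by group. The E14.5 libraries span 252 to 371 CPM on the S phase axis and 34.6 to 234 CPM on the mitosis axis, and the P9 libraries lie above them on both axes.

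The largest shares of the summed CPM were spread over several members. In E14.5 controls Pola1 made up 14.8% of the S phase sum and Rfc3 10.2%, and in P9 controls Pcna made up 16.7%. Ube2c and Top2a made up 10.3% and 10.2% of the mitosis sum in E14.5 controls, and Top2a made up 16.3% in P9 controls. Per kilobase of exon, Pcna, the sliding clamp of replication, was the most abundant member in controls of both ages, at 9.43 ± 1.65 CPM per kb at E14.5 (SD, n = 6) and 52.2 ± 12.9 CPM per kb at P9 (SD, n = 5). Ccnb2, a B-type cyclin, was at 3.07 ± 3.05 CPM per kb in E14.5 controls and 49.6 ± 45.1 CPM per kb in P9 controls, where single libraries differed widely. At E14.5, between 21 and 25 of the 25 mitosis genes had a count in a library, but only 12 to 24 reached 10 counts in a control library and 16 to 21 in an Isl1CKO library. The S phase genes were better covered, with 22 to 25 members at 10 counts or more in every library of both ages.

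**Figure D3:**
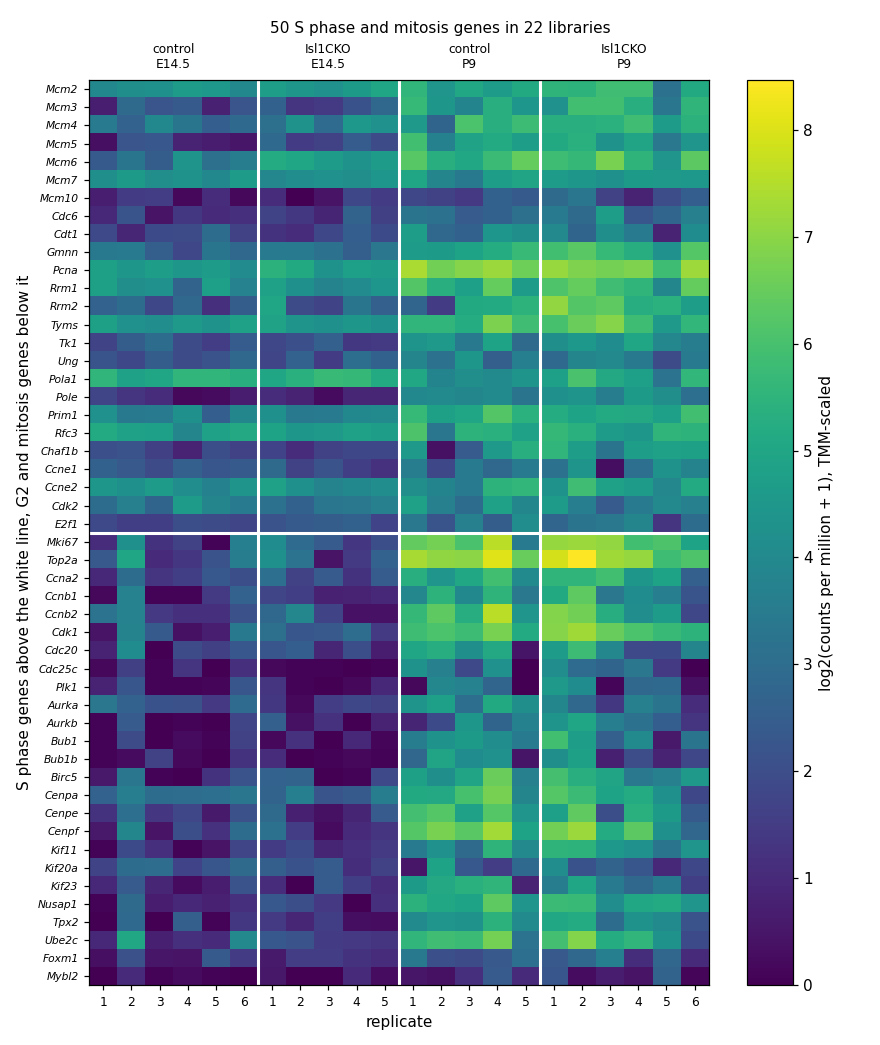
Level of each of the 50 genes in each of the 22 libraries, as log2 of CPM, in rows by list and columns by group and replicate. The mitosis genes are mostly lower in the E14.5 libraries, where control 2, control 6 and Isl1CKO 1 have the highest sums (234, 120.1 and 116 CPM), than in the P9 libraries.

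The first comparison asked whether cells without Isl1 differed from controls in these genes at E14.5. The S phase gene Mcm6 was higher in Isl1CKO, and none of the other 45 members tested passed the threshold (edgeR, Benjamini-Hochberg adjusted p under 0.05 over 15960 genes). Of the 25 S phase genes 1 was called higher and of the 21 mitosis genes tested 0 were called, against 1.43% of all genes, and Cdc25c, Bub1, Bub1b and Mybl2 were too low to be tested. Unadjusted p was under 0.05 for 2 S phase genes, Mcm6 and Mcm4, and for 1 mitosis gene, Aurka, against 11.4% of all genes, and DESeq2 called 1 S phase gene, Mcm6, and 0 mitosis genes. The median log2 difference was 0.11 over the S phase genes, of which 15 were above 0, and -0.15 over the mitosis genes, of which 7 were above 0. The groups overlapped in all 46 members tested, while 2.49% of all genes tested did not overlap.

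Mcm6 (ENSMUSG00000026355, minus strand, chr1:128331590-128359664 in GRCm38), a subunit of the replicative helicase, ranged from 4.23 to 19.6 (median 8.20) CPM in the 6 controls. The 5 Isl1CKO libraries held 35.5, 30.3, 24.9, 18.9 and 24.2 CPM. The Isl1CKO libraries were the high ones and 1 control, at 19.6 CPM, lay just above the lowest of them. The log2 difference was 1.53 ± 0.34 (SE, 95% interval 0.81 to 2.26, edgeR adjusted p = 0.0388). The call was lost in 9 of 11 fits that left out 1 library, which gave differences of 1.39 to 1.90 with edgeR adjusted p of 0.0036 to 0.0998, and kept without control 4 and without Isl1CKO 4. Without the 3 Isl1CKO libraries with the most macrophage transcripts the difference was 1.84 (edgeR adjusted p = 0.226, 2 Isl1CKO libraries), and without controls 2 and 6, which had the most mesenchyme transcripts, it was 1.57 (edgeR adjusted p = 0.139).

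Other replication genes lay in the same direction without passing the threshold. For Mcm4, a second helicase subunit, the controls ranged from 4.73 to 14.6 (median 7.59) CPM and the Isl1CKO libraries held 7.77, 19.0, 6.81, 22.0 and 18.5 CPM, a log2 difference of 0.84 ± 0.36 (edgeR adjusted p = 0.383). For Mcm2 the values were from 14.4 to 24.3 (median 17.7) CPM and 25.3, 21.2, 18.3, 23.6 and 30.2 CPM, a difference of 0.37 ± 0.18 (edgeR adjusted p = 0.475). The groups overlapped for both genes. Of the 6 helicase subunits 5 had a log2 difference above 0, and Mcm7 was at -0.14 ± 0.17. E2f1, a transcription factor that drives S phase genes, ranged from 1.97 to 3.11 (median 2.56) CPM in controls and held 3.49, 4.27, 4.63, 5.15 and 2.23 CPM in Isl1CKO, a difference of 0.66 ± 0.33 (edgeR adjusted p = 0.471). Rrm2, a subunit of the enzyme that makes deoxynucleotides, ranged from 1.23 to 6.92 (median 4.99) CPM against 30.3, 2.95, 2.35, 8.84 and 5.05 CPM, a difference of 1.15 ± 0.62 (edgeR adjusted p = 0.521). For Pcna the values were from 16.1 to 26.8 (median 22.8) CPM and 42.7, 34.3, 19.0, 26.5 and 23.8 CPM, with an interval of the log2 difference of -0.06 to 0.81. Control and Isl1CKO values overlapped for all 3. On the other side, Cdk2, the kinase partner of cyclin E, ranged from 5.67 to 24.3 (median 10.8) CPM in controls and held 7.90, 5.15, 8.98, 9.54 and 11.7 CPM in Isl1CKO, a difference of -0.47 ± 0.35 (edgeR adjusted p = 0.682).

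Among mitosis genes the largest differences by p were in the direction of lower values in Isl1CKO. Aurka, the aurora kinase of the spindle poles, ranged from 1.63 to 9.30 (median 4.35) CPM in controls and held 1.58, 0.126, 1.88, 2.61 and 2.17 CPM in Isl1CKO, a log2 difference of -1.56 ± 0.59 (95% interval -2.82 to -0.29, edgeR adjusted p = 0.299). Ube2c, the ubiquitin-conjugating enzyme of the anaphase-promoting complex, ranged from 0.686 to 33.1 (median 1.15) CPM against 4.08, 3.45, 1.76, 1.65 and 1.47 CPM, a difference of -1.80 ± 0.95 (edgeR adjusted p = 0.512). Kif20a, a kinesin of the central spindle, ranged from 2.24 to 7.11 (median 5.20) CPM against 4.94, 3.39, 4.46, 1.14 and 2.12 CPM, a difference of -0.59 ± 0.45 (edgeR adjusted p = 0.694). For Aurka and Kif20a some controls lay within the Isl1CKO range, and for Ube2c the controls fell on both sides of it. Counting used the default setting without strand. On the opposite strand, 29.3% of the exon length of Kif20a is shared with Cdc23 and 22.8% of that of Ube2c with Tnnc2. The next largest such shares were 17.4% for Ccne2 (with Ints8), 12.7% for Cdc25c (with Gm3550) and 12.5% for Ccna2 (with Exosc9). Plk1, the polo-like kinase, ranged from 0.0622 to 3.85 (median 0.446) CPM against 1.45, 0.0628, 0, 0.127 and 0.924 CPM, a difference of -1.48 ± 1.20 (edgeR adjusted p = 0.712). Mki67, the gene of the proliferation antigen Ki67, ranged from 0.0583 to 17.9 (median 1.77) CPM against 16.4, 6.78, 4.34, 1.53 and 3.10 CPM, a difference of 0.17 ± 0.90 with an interval of -1.76 to 2.11. The highest values of both genes were in controls, and the other libraries of the genotypes overlapped. Top2a, the topoisomerase that untangles chromosomes, ranged from 1.06 to 30.2 (median 3.80) CPM against 17.9, 8.35, 0.352, 1.72 and 5.33 CPM, a difference of -0.35 ± 0.88. Cdk1, the mitotic kinase, ranged from 0.311 to 12.7 (median 2.44) CPM against 7.77, 3.83, 4.11, 7.18 and 1.68 CPM, a difference of 0.07 ± 0.82. The genotypes overlapped in both.

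These data bounded a genotype difference more tightly for S phase genes than for mitosis genes. The 95% interval lay within a 2-fold change either way for 9 of 25 S phase genes at E14.5, among them Mcm2, Mcm7, Pcna, Tyms and Rrm1, and for 1 of 21 mitosis genes, Cenpa, the centromeric histone. The median distance from the estimate to the edge of the interval was 0.74 for S phase genes and 1.94 for mitosis genes on the log2 scale. At P9 the interval lay within 2-fold for 7 of 25 S phase genes and for 1 of 24 mitosis genes, Top2a, with median distances to the edge of 0.91 and 1.40.

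**Figure D4:**
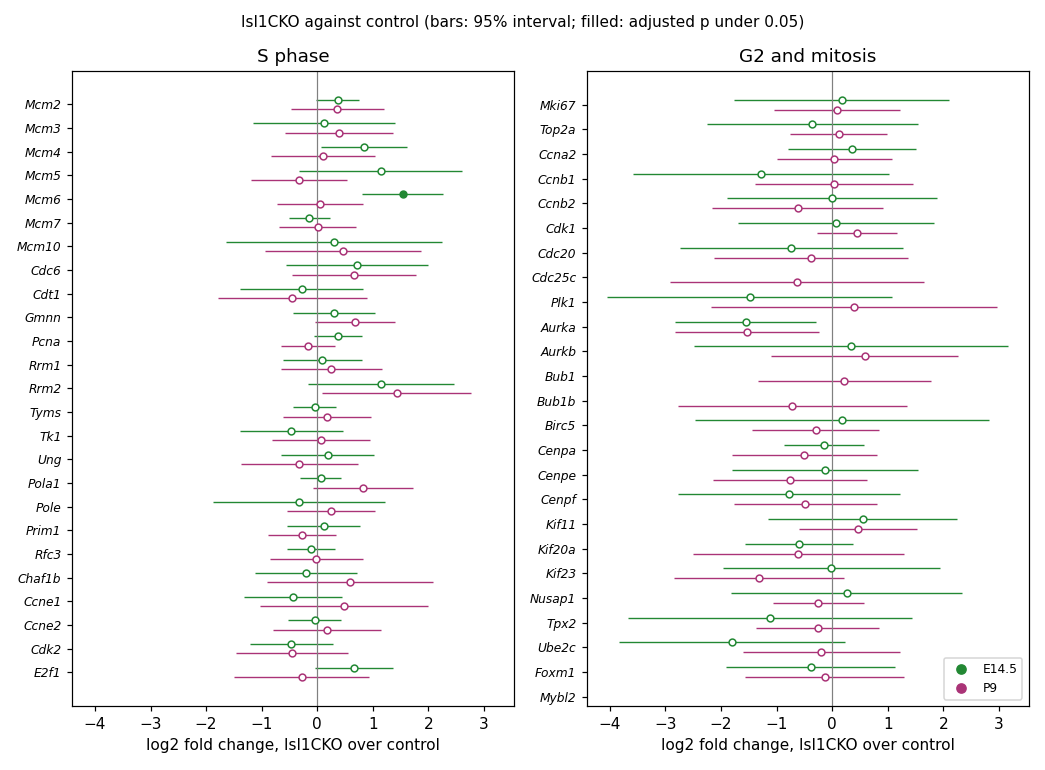
Log2 difference of Isl1CKO against control for each tested member at E14.5 and at P9, as points with 95% intervals from edgeR. Mcm6 at E14.5 (1.53) is the called member, and the intervals of most mitosis genes span more than 2-fold either way.

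At P9 the question was the same for cells of newborn mice. No member was called: 0 of 49 tested passed the threshold with edgeR, against 4.81% of the 13964 genes tested, and 0 did with DESeq2 (Mybl2 was too low to be tested with edgeR). Unadjusted p was under 0.05 for 2 members, Rrm2 and Aurka, and the smallest adjusted p among members was 0.189. The median log2 difference was 0.17 over S phase genes, of which 17 were above 0, and -0.25 over the 24 mitosis genes tested, of which 9 were above 0. The groups overlapped in all members, while 5.38% of all genes did not overlap.

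Rrm2 had controls of 5.74, 1.81, 34.4, 35.5 and 43.8 CPM and Isl1CKO libraries from 25.7 to 134 (median 57.1) CPM. Controls 1 and 2 were the low ones and the rest overlapped, with a log2 difference of 1.43 ± 0.63 (95% interval 0.08 to 2.77, edgeR adjusted p = 0.251). Gmnn, the inhibitor of origin licensing, held 24.6, 23.3, 28.9, 37.1 and 50.8 CPM in controls and ranged from 18.5 to 77.9 (median 54.1) CPM in Isl1CKO, a difference of 0.67 ± 0.34 (edgeR adjusted p = 0.327). Pola1, the catalytic subunit of the polymerase that starts DNA strands, held 31.8, 13.2, 17.0, 15.4 and 19.7 CPM and ranged from 8.35 to 64.5 (median 30.0) CPM, a difference of 0.82 ± 0.42 (edgeR adjusted p = 0.341). The genotypes overlapped in both genes. Cdc6, the helicase loading factor, held 8.54, 7.86, 4.42, 5.23 and 7.76 CPM and ranged from 3.78 to 25.5 (median 8.58) CPM, a difference of 0.66 ± 0.52 (edgeR adjusted p = 0.595). Cdk1 held 55.5, 65.9, 55.2, 108 and 35.1 CPM and ranged from 43.7 to 151 (median 77.8) CPM, a difference of 0.44 ± 0.34 (edgeR adjusted p = 0.573). All 5 genes had control values inside the Isl1CKO range. When libraries were scaled to total counts, the median log2 difference of all genes moved from 0.02 to 0.68 and 4 members were called higher, Cdk1 (1.06), Gmnn (1.32), Pola1 (1.44) and Rrm2 (2.04). On that scaling 3824 of 3975 genes called were higher in Isl1CKO, and on total counts without the hormone genes 289 of 758 were, against 372 of 671 with TMM.

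On the lower side at P9, Aurka held 19.7, 26.2, 7.32, 34.1 and 17.5 CPM in controls and ranged from 1.12 to 13.9 (median 7.48) CPM in Isl1CKO. Control 3 was low and the other controls lay above every Isl1CKO library, a log2 difference of -1.53 ± 0.61 (95% interval -2.83 to -0.24, edgeR adjusted p = 0.189), and in no alternative did Aurka pass the threshold at either age (edgeR or DESeq2 adjusted p of 0.101 to 0.358 at P9 and 0.108 to 0.741 at E14.5). Kif23, a kinesin needed for cytokinesis, held 23.2, 33.6, 40.3, 45.3 and 0.789 CPM and ranged from 1.98 to 30.4 (median 9.80) CPM, a difference of -1.32 ± 0.72 (edgeR adjusted p = 0.38). Cenpe, a kinetochore motor, held 60.2, 73.5, 27.6, 73.5 and 20.1 CPM and ranged from 3.09 to 83.3 (median 24.7) CPM, a difference of -0.76 ± 0.65 (edgeR adjusted p = 0.622). Control and Isl1CKO values overlapped for both. Prim1, the primase subunit, held 49.4, 27.4, 30.2, 71.6 and 41.6 CPM and ranged from 26.5 to 58.4 (median 34.0) CPM, a difference of -0.28 ± 0.29 (edgeR adjusted p = 0.706). Cdk2 held 27.9, 11.9, 6.90, 27.7 and 13.7 CPM and ranged from 4.35 to 24.8 (median 11.4) CPM, a difference of -0.46 ± 0.47 (edgeR adjusted p = 0.704). Neither separated the genotypes. Mki67 held 85.0, 102, 65.0, 191 and 9.99 CPM and ranged from 28.8 to 146 (median 102) CPM, a difference of 0.08 ± 0.53 with an interval of -1.05 to 1.22. Top2a held 161, 132, 126, 262 and 89.8 CPM and ranged from 56.5 to 352 (median 145) CPM, a difference of 0.12 ± 0.41 with an interval of -0.75 to 0.99. Pcna held 168, 99.8, 119.6, 145 and 94.8 CPM and ranged from 55.9 to 147 (median 113) CPM, a difference of -0.16 ± 0.23 with an interval of -0.66 to 0.33. In all 3 the P9 genotypes overlapped, with 1 low Isl1CKO library for Pcna.

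The Isl1CKO effect was then compared between the ages. The difference between ages passed the threshold for 0 of 50 members (edgeR), against 2.08% of 17265 genes, with unadjusted p under 0.05 for 1 member, Mcm6, and 0 called by DESeq2. For Mcm6 the P9 controls held 76.5, 39.6, 32.2, 53.7 and 86.3 CPM and the P9 Isl1CKO libraries ranged from 20.1 to 107 (median 52.4) CPM. The genotypes overlapped fully at P9, where the log2 difference was 0.04 ± 0.36, and the change of the effect from E14.5 to P9 was -1.49 ± 0.53 (95% interval -2.59 to -0.39, edgeR adjusted p = 0.154). The next members on that side were Mcm5 at -1.47 ± 0.80, Pcna at -0.53 ± 0.32, E2f1 at -0.94 ± 0.65 and Mcm4 at -0.72 ± 0.61, with edgeR adjusted p of 0.406, 0.466, 0.546 and 0.639. For Mcm5 the E14.5 values were from 0.282 to 3.86 (median 0.665) CPM in controls and 6.38, 1.82, 2.17, 4.51 and 2.88 CPM in Isl1CKO. At P9 they were 58.7, 12.1, 28.6, 34.7 and 25.9 CPM and from 9.45 to 40.3 (median 24.9) CPM. For Mcm4 the P9 values were 22.5, 5.59, 65.6, 38.8 and 55.0 CPM in controls and from 24.4 to 57.5 (median 40.1) CPM in Isl1CKO, and for E2f1 they were 9.38, 3.63, 11.9, 4.60 and 16.6 CPM and from 1.41 to 13.4 (median 7.72) CPM. The genotypes overlapped at both ages in these genes.

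On the other side were Cdc25c at 2.91 ± 1.67, Pola1 at 0.77 ± 0.47, Ube2c at 1.61 ± 1.23, Ccne1 at 0.93 ± 0.85 and Plk1 at 1.89 ± 1.83, with edgeR adjusted p of 0.44, 0.475, 0.6, 0.672 and 0.696. Cdc25c, the phosphatase that activates Cdk1, ranged from 0 to 2.03 (median 0.682) CPM in E14.5 controls and held 0.132, 0.0628, 0.0587, 0 and 0.0543 CPM in E14.5 Isl1CKO. At P9 it held 18.9, 11.8, 2.62, 18.2 and 0 CPM and ranged from 0 to 16.7 (median 6.19) CPM. Most E14.5 values of Cdc25c were thus at or near 0. Ccne1, the gene of cyclin E1, ranged from 2.93 to 5.21 (median 4.17) CPM and held 6.58, 2.13, 3.52, 1.97 and 1.30 CPM at E14.5. At P9 Ccne1 held 11.1, 2.57, 10.1, 6.02 and 10.3 CPM in controls and ranged from 0.229 to 20.0 (median 10.3) CPM in Isl1CKO. The genotypes overlapped at each age. For Ube2c the P9 values were 46.4, 58.1, 53.9, 102 and 8.42 CPM and from 2.76 to 119 (median 41.6) CPM, for Plk1 0.140, 14.2, 12.4, 5.71 and 0 CPM and from 0.115 to 22.7 (median 6.24) CPM, and for Pola1 the E14.5 values were from 28.0 to 46.9 (median 42.4) CPM and 31.3, 40.1, 51.6, 48.2 and 35.5 CPM. Scaled to total counts, 1 member was called, Pola1 (1.35, edgeR adjusted p = 0.0432), where the median of all genes was 0.68 and 3109 of 3199 genes called were higher (164 of 403 on total counts without hormone genes), against 212 of 359 with TMM.

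Age was the comparison in which the members moved together. Between E14.5 and P9, 36 of 50 members rose in controls and 1 fell (edgeR), against 15.8% of all 17265 genes higher and 15.2% lower. In Isl1CKO 37 of 50 rose and 0 fell, against 16.0% and 13.7% of all genes. Unadjusted p was under 0.05 for 42 of 50 members in each genotype, against 40.8% of all genes in controls and 39.8% in Isl1CKO. DESeq2 called 38 members higher and 1 lower in controls and 40 higher and 0 lower in Isl1CKO. The median log2 change was 2.56 in controls and 2.72 in Isl1CKO, beside -0.04 and 0.05 over all genes. In 22 members in controls and 17 in Isl1CKO every P9 library lay above every E14.5 library, against 9.85% and 9.22% of all genes. The age comparisons use separate libraries for the genotypes but come from 1 fit, and in both age cannot be told apart from dissociation. In both genotypes 34 members were called higher, 94.4% of those called higher in controls and 91.9% of those in Isl1CKO. The shared part of all genes called higher was not counted.

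The median rise was larger over the mitosis genes than over the S phase genes. In controls 19 of 25 mitosis genes rose, with a median log2 change over all 25 of 3.64, and 17 of 25 S phase genes rose, with a median of 1.88. In Isl1CKO 21 mitosis genes and 16 S phase genes rose, with medians of 3.91 and 1.66. The difference between the lists was not tested. Called changes ran from 1.43 (Tyms) to 4.31 (Mcm5) for S phase genes and from 2.08 (Aurka) to 4.62 (Nusap1) for mitosis genes in controls. In Isl1CKO they ran from 1.15 (Mcm6) to 4.39 (Pole) and from 2.11 (Aurka) to 6.55 (Cdc25c). The value for Cdc25c rests on a total of 5 counts over the 5 E14.5 Isl1CKO libraries. Scaling to total counts moved the median of all genes to -1.21 in controls and -0.50 in Isl1CKO and left 24 members higher and 2 lower (Mcm7 and Pola1) in controls and 29 higher and 1 lower (Pola1) in Isl1CKO. On that scaling 604 of 10636 genes called in controls and 1219 of 6717 in Isl1CKO were higher, against 2721 of 5347 and 2758 of 5124 with TMM, and in Isl1CKO 2016 of 5364 were on total counts without hormone genes.

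**Figure D5:**
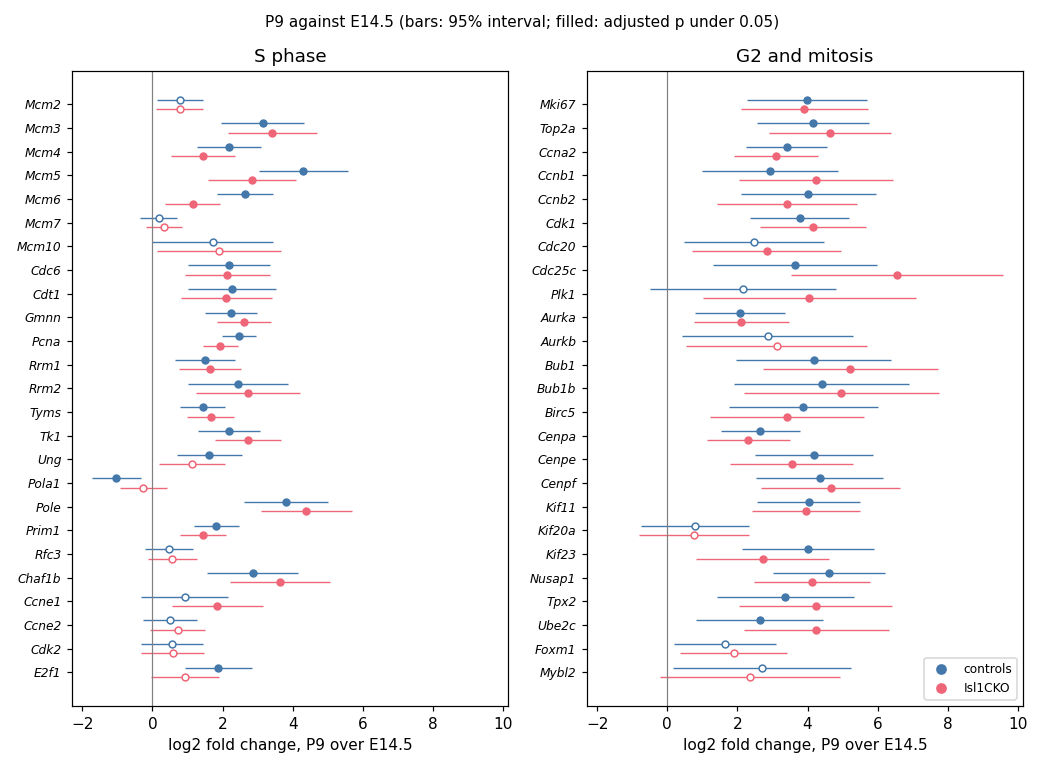
Log2 change from E14.5 to P9 for each of the 50 genes in controls and in Isl1CKO, as points with 95% intervals from edgeR. Most members lie above 0 in both genotypes, the ranges of the lists overlap, and Pola1 lies below 0.

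Of the helicase subunits, Mcm3, Mcm4, Mcm5 and Mcm6 rose in both genotypes, and Mcm2 (0.78 ± 0.32 in controls) and Mcm7 (0.17 ± 0.25) were not called. Mcm5 rose by 4.31 ± 0.62 in controls and 2.84 ± 0.61 in Isl1CKO (edgeR adjusted p = 1.1e-05 and 0.00101). Its libraries did not overlap between ages in either genotype. Cdc6 and Cdt1, which load the helicase, and Gmnn rose in both. Mcm10, an initiation factor, was at 1.72 ± 0.83 and 1.89 ± 0.86 and was not called. Pcna rose by 2.47 ± 0.23 and 1.94 ± 0.24 (edgeR adjusted p = 2.7e-08 and 1.3e-06), with no overlap of ages, and has pseudogenes by name, as have Tyms, Ccnb1 and Ccnb2.

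The fork genes did not move as one. Pole, the catalytic subunit of the leading strand polymerase, rose by 3.81 ± 0.58 and 4.39 ± 0.63 (edgeR adjusted p = 2.2e-05 and 1.1e-05), from 0.960 ± 0.867 to 13.5 ± 2.89 CPM in controls (SD, n = 6 and n = 5). Prim1 rose by 1.82 ± 0.31 and 1.44 ± 0.32, and Rfc3, a subunit of the clamp loader, was at 0.46 ± 0.33 and 0.57 ± 0.33 and was not called. Pola1 fell by 1.03 ± 0.34 in controls (edgeR adjusted p = 0.0232) and was at -0.26 ± 0.33 in Isl1CKO (edgeR adjusted p = 0.59). The call in controls was lost without P9 control 2 (-0.92, edgeR adjusted p = 0.0607), control 3 (-0.99, 0.0503) or control 4 (-0.96, 0.0546). Leaving out the control library of each age with the most acinar transcripts also lost the call (-0.93, edgeR adjusted p = 0.0835). It was also lost with the replicate number as a block (-0.85, edgeR adjusted p = 0.134). The same held without the 2 control libraries of each age with the most mesenchyme transcripts (-0.99, edgeR adjusted p = 0.135). All 4 nucleotide synthesis genes (Rrm1, Rrm2, Tyms and Tk1) rose in both genotypes, as did Chaf1b, a chromatin assembly subunit, by 2.85 ± 0.63 and 3.65 ± 0.69. Ung, a uracil glycosylase of base excision repair, and E2f1 were called in controls (1.63 ± 0.45 and 1.88 ± 0.47) and not in Isl1CKO (1.12 ± 0.46 and 0.94 ± 0.47), and Ccne1 in Isl1CKO (1.85 ± 0.63) and not in controls (0.92 ± 0.60). None of these 3 passed the test of the difference between genotypes given above as the change of the Isl1CKO effect. Ccne2 and Cdk2 were called in neither genotype.

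Of the mitotic cyclins and kinases, Ccna2, Ccnb1, Ccnb2, Cdk1, Aurka and the phosphatase gene Cdc25c rose in both genotypes. Cdk1 went from 4.66 ± 5.36 to 63.9 ± 26.9 CPM in controls (SD, n = 6 and n = 5), a log2 change of 3.77 ± 0.68 (edgeR adjusted p = 0.000162), and changed by 4.15 ± 0.73 in Isl1CKO (edgeR adjusted p = 0.000136). Its P9 libraries lay above all E14.5 libraries in both genotypes. Plk1 was called in Isl1CKO (4.05 ± 1.47) and not in controls (2.16 ± 1.29), and Aurkb, the aurora kinase of the chromosomal passenger complex, in neither (2.86 ± 1.19 and 3.12 ± 1.25). Aurkb was at 0 in 2 E14.5 controls and 1 E14.5 Isl1CKO library.

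Of the kinetochore and checkpoint genes, Bub1, Bub1b, Cenpa, Cenpe, Cenpf and Birc5 all rose in both. Cenpf, a kinetochore protein made in G2, rose by 4.35 ± 0.88 in controls and 4.66 ± 0.96 in Isl1CKO (edgeR adjusted p = 0.000533 and 0.000673). Among motor and spindle genes Kif11, Kif23, Nusap1 and Tpx2 rose in both, and Kif20a in neither (0.78 ± 0.75 and 0.77 ± 0.76). Nusap1, which binds spindle microtubules, rose by 4.62 ± 0.77 and 4.12 ± 0.80 (edgeR adjusted p = 7.2e-05 and 0.000406). Top2a rose by 4.17 ± 0.77 and 4.65 ± 0.84 and Mki67 by 3.99 ± 0.83 and 3.91 ± 0.88 (edgeR adjusted p = 0.000229 and 0.000193 for Top2a, 0.000769 and 0.00158 for Mki67). For Mki67 the highest E14.5 control overlapped the P9 controls. Of the exit genes, Ube2c rose in both genotypes and Cdc20, the activator of the anaphase-promoting complex, was called in Isl1CKO (2.83 ± 1.03, edgeR adjusted p = 0.0404) and not in controls (2.47 ± 0.97, edgeR adjusted p = 0.0542). The transcription factors Foxm1 (1.65 ± 0.71 and 1.89 ± 0.74) and Mybl2 (2.70 ± 1.23 and 2.35 ± 1.24), known to switch on mitosis genes, were called in neither.

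When single libraries were left out, 34 to 38 members were called higher with age in controls and 32 to 39 in Isl1CKO. Of the 37 members called in each genotype, 34 in controls and 32 in Isl1CKO were called in every such fit. Pola1, Ccnb1 and Ube2c lost their call in controls in at least 1, with all 3 lost without P9 control 4, as did Mcm6, Ccne1, Cdc20, Plk1 and Kif23 in Isl1CKO, with all 5 lost without E14.5 Isl1CKO 4 or 5. Leaving out the control library of each age with the most acinar transcripts (E14.5 control 5 and P9 control 3) left 35 members higher in controls. Without the 2 control libraries of each age with the most mesenchyme transcripts 32 members were higher, 30 of them among the 37. Without the 4 Isl1CKO libraries with the most macrophage or duct transcripts 10 members were higher in Isl1CKO, a fit that keeps 2 E14.5 Isl1CKO libraries.

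Other genes of the same pathways were counted from lists of replication, mitosis and E2F control. Of 40 other replication genes, 20 rose and 2 fell with age in controls and 18 rose and 2 fell in Isl1CKO, where the shares of all genes were 15.8% higher and 15.2% lower in controls and 16.0% and 13.7% in Isl1CKO. Clspn, a checkpoint mediator at the fork, rose by 6.98 in controls and 4.19 in Isl1CKO, and Lig1, the ligase of lagging strands, by 2.32 and 2.39. Of 40 other mitosis genes, 37 rose and 0 fell in each genotype, among them Cenpw, a centromere protein (3.61 and 3.15), and Smc2, a condensin subunit (1.92 and 2.27). Of 17 genes of the E2F, RB and DREAM group, which hold cell cycle promoters on or off, 6 rose and 2 fell in controls and 4 rose and 1 fell in Isl1CKO. E2f2 rose by 2.52 in controls, and the histone-binding Rbbp4 fell by 0.61 in controls and by 0.62 in Isl1CKO.

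Between genotypes no gene of these 3 lists was called with edgeR, at E14.5, at P9 or in the difference between ages. Unadjusted p was under 0.05 at E14.5 for 2 of 38 replication genes, 3 of 34 mitosis genes and 0 of 17 E2F group genes tested, at P9 for 5 of 39, 3 of 40 and 1 of 17, and in the difference for 5 of 40, 2 of 40 and 1 of 17. Over all genes these shares were 11.4%, 17.4% and 15.1%. DESeq2 called Cdc7, a kinase that fires origins, at E14.5, Mcm8, Orc5 and Lin9 at P9, and Rfc5 and Lin9 in the difference. With edgeR these were at -0.86 for Cdc7 (adjusted p = 0.143), 2.33 for Mcm8 (adjusted p = 0.0883), 0.94 for Orc5 (adjusted p = 0.101), 1.56 for Lin9 at P9 (adjusted p = 0.0606) and -1.01 for Rfc5 (adjusted p = 0.0718).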

How the data were processed

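The deposited values are raw counts per gene, 1 table for each age. The authors aligned reads of the 22 libraries with STAR 2.7.0c to GRCm38.p6 after trimming with cutadapt 1.18 and removing ribosomal reads with Bowtie 1.2.2 and SortMeRNA, and counted them with Rsubread at its default settings, which use no strand, without reads that map to several places. Listed genes hold at least 10 counts over their table.

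Each age was tested alone with edgeR 4.0.16 in R 4.3.3 (quasi-likelihood test, TMM scaling, filterByExpr, Benjamini-Hochberg adjustment over all genes tested, threshold 0.05), and age and the change of the Isl1CKO effect in 1 fit of the 22 libraries. Levels per library use the scaling of the 22 libraries and can differ slightly from the fits of single ages. Standard errors are the log2 fold change divided by the square root of the F statistic, with 95% intervals from them, and list sums carry no test. Counting error alone does not cover PCR duplicates, as reads had no molecular identifiers.

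The members and lists were chosen with earlier results of these data known. Values per library are given for members called in an Isl1CKO comparison, for the 5 smallest p in each direction of each, and for Mki67, Top2a, Pcna and Cdk1, and up to 4 other genes are named per pathway list. The study calls the sorted samples biological replicates and a figure legend counts those of E14.5 as embryos. Its methods do not say whether each library came from a single animal or a pool, so p-values measure the spread between these libraries. Alternatives were DESeq2 1.42.0, 3 other scalings, another filter, a replicate block, all libraries in 1 fit and leaving out libraries. Methods were tested on simulated data.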

Additional observations from a re-analysis of the deposited data

Results flagged for a closer look

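In groups of 5 or 6 libraries, 6 of 100 values examined (the list sums and the members named per library) had a lowest or highest library set apart by its gap to the nearest other, where chance gives about 5%. Isl1CKO library 5 of P9 gave 3 of the 6, which are not separate, as 2 of them, Pcna and Mcm2, are part of the S phase sum. Its S phase sum was 447.7 CPM beside 783.1 to 1027 CPM in the other 5 libraries, its Pcna was 55.91 CPM beside 103.7 to 146.7 CPM, and its Mcm2 was 8.146 CPM beside 34.68 to 57.97 CPM. In Isl1CKO library 3 of P9, Ccne1 was 0.2291 CPM beside 7.438 to 19.96 CPM. Kif23 was 0.789 CPM in control library 5 of P9 beside 23.25 to 45.33 CPM in the other 4. Aurka was 0.1256 CPM in Isl1CKO library 2 of E14.5 beside 1.579 to 2.607 CPM in the other 4. No member passed the edgeR test of a difference between ages in its Isl1CKO effect.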

How the results depend on the processing

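At E14.5 the single call, Mcm6, gave way to 0 members called when every gene with 10 counts was tested (edgeR adjusted p = 0.0540), with the replicate number as a block (1.78, adjusted p = 0.109), with the 4 groups in 1 fit (adjusted p = 0.104) and, chosen after seeing the data, without the 3 Isl1CKO libraries with the most macrophage transcripts or the 2 controls with the most mesenchyme transcripts; leaving out single libraries gave 0 to 1. Total counts gave 4 members at P9 and 1 in the difference between ages. Age in Isl1CKO gave 10 members higher without the 4 libraries with the most macrophage or duct transcripts, also chosen after seeing the data. The S phase sum was 353.44 CPM in E14.5 controls, 414.63 CPM in E14.5 Isl1CKO and 439.33 CPM in P9 controls on total counts (771.66 CPM in P9 Isl1CKO, 1.76 times controls against 1.14 with TMM), and 368.59, 421.74 and 961.49 CPM on total counts without hormone genes. With the block, members called were 0 at E14.5, 0 at P9 and 0 in the difference. With age, 34 were higher in controls and 29 in Isl1CKO. Deviations of same-numbered libraries from their group means had correlations of -0.0514 to 0.0536. These values cannot settle whether the numbers mark shared litters or batches.

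Counts over all genes moved by more than 1.5 times at E14.5 from 228 to 653 (DESeq2), 59 (4 groups in 1 fit), 134 (block), 147, 146 and 114 (without Isl1CKO 2, 3 or 5) and 42 and 108 (without the 3 macrophage-rich or 2 mesenchyme-rich libraries), at P9 from 671 to 1677 (DESeq2), 3975 (total counts), 1814 (4 groups), 333 (block) and 339 (without controls 3 and 4), and in the difference from 359 to 924 (DESeq2), 3199 (total counts), 130 (block) and 219 and 227 (without E14.5 Isl1CKO 1 or 3). With age they moved from 5347 to 10636 in controls on total counts and 3471 without the 2 mesenchyme-rich controls of each age, and from 5124 to 1945 in Isl1CKO without the 4 libraries. Ratios of list sums that turned are given with their values in the report for the mitosis genes; with age in controls, the sum of other replication genes was 1.49-fold with TMM and 0.663-fold on total counts. At E14.5 12 to 24 of the 25 mitosis genes reached 10 counts in a control library.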
